A study of Mus musculus with 6 samples.

Results

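The cells described here are 790 of the 16367 cells in 1 library of mouse alveolar type II (ATII) cells, chosen because they were richest in transcripts of Krt8, Krt19, Cldn4, Sprr1a, S100a6 and Sfn. For each cell the UMIs (unique molecular identifiers, 1 per captured RNA molecule) of these 6 genes were summed and divided by the cell's total. The top 5% held 818 cells, of which 28 also lay in the library's top 5% for the club cell genes Scgb1a1, Scgb3a2, Cyp2f2 and Aldh1a1 and were left out. The 8183 cells with the lowest marker sum, the lowest 50%, are the reference. The series as a whole had 36540 cells after filtering.

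The study measured single cells of sorted mouse ATII cells and of the alveolarspheres grown from them, by droplet sequencing of the 3 prime ends of RNA. Its labels list, each once as an expression library, cultured cells of day 13 from young and old mice, cultured cells of day 13 from young mice only, and freshly sorted cells of day 0 from young and old mice. The labels also list a tag library, marked hto, for each of these groups. The count matrix used here holds 0 tag features, so cells could not be assigned to mice by tags. All mice carried the wild-type IL4Ra genotype. Cultures received 10 ng/ml of interleukin from day 3, or PBS as its control. The title names IL-4 and the design text gives another interleukin number. The cell barcodes carry 3 library tokens, called A, B and C here in order of appearance, and no token matches a label. All 790 cells are from library A. Its day, its mice, their ages and any treatment could not be read from the files, so a difference between young and old mice and a difference between cells of 1 mouse cannot be told apart. Within the library each set of cells is a single sample, so levels and folds are given without tests, and intervals cover counting error only.

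Krt8 and Krt19 are keratins of simple epithelia. In mouse lung they are raised in the intermediate cells through which ATII cells pass as they turn into alveolar type I (ATI) cells after injury. Sfn, a 14-3-3 protein induced by p53, Cldn4, a tight junction claudin, Sprr1a, a cornified envelope precursor, and S100a6, a calcium-binding protein, have been described in the same intermediate cells. ATII cells themselves make surfactant, store it in lamellar bodies and rely on lipid synthesis to do so.

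Promoter letters are shown for 5 genes that the values below turn on, because each holds a motif of a factor family known for stress responses. Sequences are from RefSeq, build GRCm38.p6, and give the 160 bases before the RefSeq start, 5′ to 3′ on the gene's strand, with motif matches in capitals. For Emp1 these bases lie downstream of the gene start in the GENCODE annotation, 135362545. The search used TGANTCA for AP-1, TGACGTCA for the cAMP response element (CRE) and, for NF-kB, GGGA followed by any base and TTTCC, all on both strands, where N is any base. The promoters were those of Sprr1a (chr3:92485882-92486041, minus strand), Emp1 (chr6:135362771-135362930, plus strand), F3 (chr3:121723377-121723536, plus strand), Areg (chr5:91139439-91139598, plus strand) and Cxcl2 (chr5:90903739-90903898, plus strand).
Sprr1a: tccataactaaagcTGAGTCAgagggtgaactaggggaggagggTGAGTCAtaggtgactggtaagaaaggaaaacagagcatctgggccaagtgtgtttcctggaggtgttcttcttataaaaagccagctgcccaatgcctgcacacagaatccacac
Emp1: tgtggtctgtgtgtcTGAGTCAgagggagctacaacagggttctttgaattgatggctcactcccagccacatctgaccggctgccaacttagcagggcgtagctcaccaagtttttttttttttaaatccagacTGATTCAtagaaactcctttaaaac
F3: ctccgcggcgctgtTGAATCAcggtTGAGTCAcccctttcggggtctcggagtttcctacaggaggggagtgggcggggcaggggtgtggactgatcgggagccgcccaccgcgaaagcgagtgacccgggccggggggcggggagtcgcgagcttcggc
Areg: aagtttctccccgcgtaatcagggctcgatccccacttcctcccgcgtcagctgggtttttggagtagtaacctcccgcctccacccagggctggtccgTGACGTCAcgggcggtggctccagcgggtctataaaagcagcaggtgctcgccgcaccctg
Cxcl2: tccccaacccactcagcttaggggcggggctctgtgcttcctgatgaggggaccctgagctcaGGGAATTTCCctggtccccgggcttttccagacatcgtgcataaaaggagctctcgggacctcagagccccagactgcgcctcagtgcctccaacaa

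AP-1 matches lay 146 and 116 bases before the start of Sprr1a, 145 and 25 bases before that of Emp1, and 146 and 135 bases before that of F3. The CRE match of Areg lay 61 bases before its start and the NF-kB match of Cxcl2 lay 97 bases before its start. A match describes letters and not a bound site. A gene was counted if any of its promoter entries held a match. An AP-1 match was found in 4.53% of all 32851 promoters and in 3.65% of the 4244 measured genes with a promoter. It was found in 15 (20%) of the 75 genes with a promoter that were at least 2-fold higher in the marker-rich cells. A CRE match was found in 1.39% of all promoters and in 2 of those 75 (2.67%), against 3.25% of measured genes. An NF-kB match was found in 0.237% of all promoters and in 3 of those 75 (4%), against 0.377% of measured genes. Of the 12 highest genes named below, 8 had a promoter entry.

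The cells were chosen by their marker sum, so its values are a description. Its median was 3039 UMIs per 1000000 UMIs of a cell in the marker-rich cells and 268 in the reference. In UMIs this was a median of 11 in marker-rich cells and 1 in the reference. The ranking had no gap at its limit: the 20 lowest members ran from 2343 to 2363 and the 20 highest cells below the limit from 2319 to 2343 on that scale. Median depth was 3401 UMIs in marker-rich cells and 3755 in the reference, median genes per cell were 1318 and 1390, and median mitochondrial content was 2.11% and 2.49%. The marker-rich cells were thus slightly shallower, and their share of mitochondrial RNA was slightly lower.

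The 6 genes contributed unequally. Krt8 gave 41.3% of the marker UMIs of these cells, S100a6 22.2%, Sfn 21.0%, Sprr1a 10.3% and Krt19 5.05%. Krt8 was the leading gene in 491 cells, S100a6 in 130, Sfn in 114, Sprr1a in 51 and Krt19 in 4. A Krt8 UMI was present in 98.6% of the cells and a Sfn UMI in 82.4%, whereas Krt19 was detected in 43.2%, S100a6 in 37.5% and Sprr1a in 23.9%. After each cell was thinned to 2000 UMIs these shares were 94.9%, 70.4%, 31.4%, 33.4% and 21.3% in the same order. Only 1 cell held all 6 genes, 55 held 5 and 287 held 2. The label therefore describes a Krt8-rich and Sfn-rich population in which Krt19, S100a6 and Sprr1a were each held by a minority. Cldn4 was nearly absent, with 12 UMIs in the marker-rich cells and 1 in the reference, and did not characterise the cells.

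Each marker was also left out of the rule in turn, and its level compared between cells chosen with the other 5. That gene's own UMIs then took no part in choosing the cells. The 6 genes were picked as a set with earlier results of these data known, so these values are a description too. S100a6 then averaged 601 CPM (counts per 1000000 summed UMIs) in the chosen cells and 12.1 CPM in their reference, a log2 fold of 5.52 with a pseudocount of 1 CPM. Sprr1a averaged 311 CPM in the chosen cells and 4.63 CPM in their reference, a log2 fold of 5.79. Both mean levels were thus far higher in the chosen cells without the gene having been used to choose them. A minority of the chosen cells held a UMI, 24.1% for S100a6 and 16.9% for Sprr1a, against 2.32% and 0.953% of their reference cells. Krt19 stood at 159 and 37.9 CPM (log2 fold 2.04), Sfn at 549 and 137 CPM (2.00) and Krt8 at 1060 and 414 CPM (1.35) in the chosen cells and their reference. Krt8, a gene most ATII cells of the library held, had the smallest fold of these 5. Without Krt8 in the rule, 64.0% of the chosen cells were the same; without Cldn4, 99.9%.

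Outside the rule genes, 5354 genes reached 20 CPM in either set of cells. Of these, 101 (1.89%) were at least 2-fold higher in the marker-rich cells and 28 (0.523%) at least 2-fold lower, 2.41% in all, and the median log2 fold of all of them was 0.06. The split rests on that minimum: with no CPM minimum 354 genes were higher and 425 lower. TMM factors, another scaling, gave 79 higher and 32 lower, with a median log2 fold of -0.0028 over all genes. Without TMM factors the median of 0.06 means that more of all measured genes lay above 0 than below it. Counts of list genes above or below 0, given in later paragraphs, have that as their background. The exact share of all measured genes above 0 is not given here. These counts therefore describe direction only, and the list medians are to be read against 0.06. The plot of fold against level shows that Sftpc, an abundant ATII transcript, lay near 0.

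**Figure D1:**
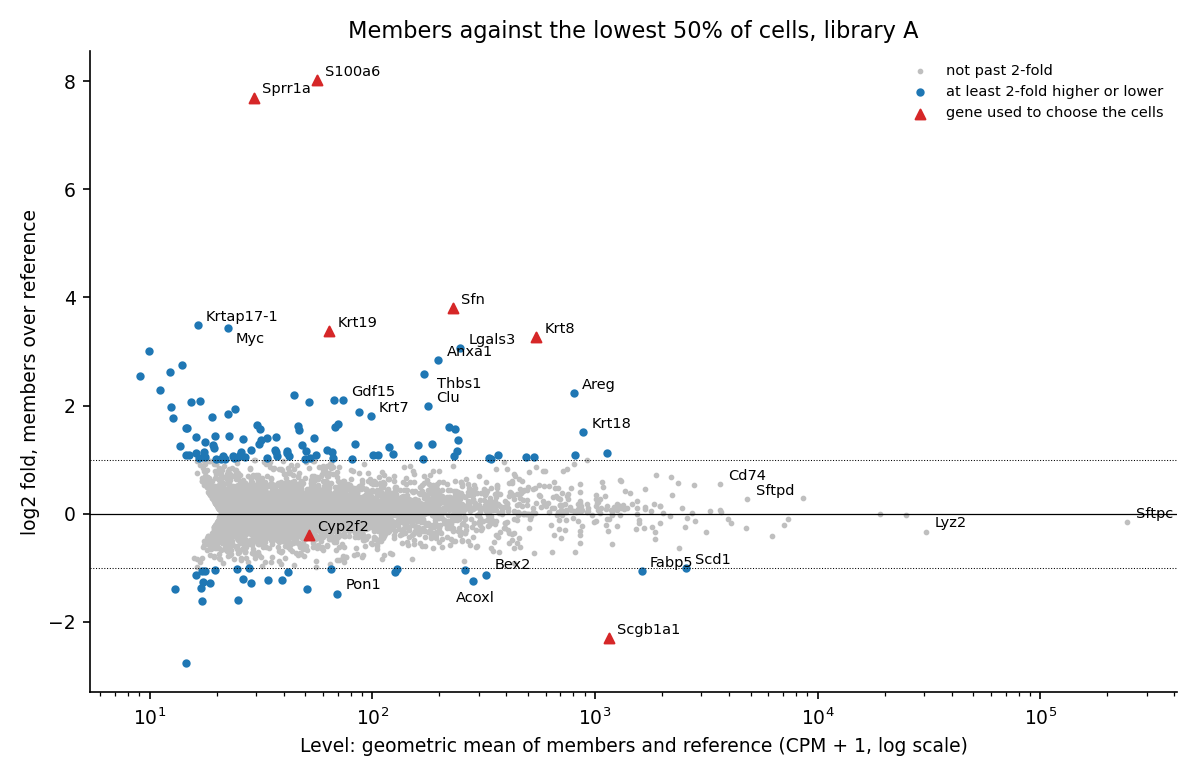
Log2 fold of the 790 marker-rich cells over the 8183 reference cells of library A (vertical) against the geometric mean level of both (CPM + 1, log scale), 1 point per gene that reached 20 CPM. Blue points are at least 2-fold higher or lower, red triangles are genes used to choose the cells and are a description only; Sftpc at the far right lies near 0 while Lgals3, Anxa1, Areg and Krt18 lie above the dotted 2-fold line.

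The 12 genes with the largest folds at 50 CPM or more in either set were Krtap17-1, Myc, Lgals3, Anxa1, Thbs1, Areg, Emp1, Gdf15, F3, Cxcl2, Clu and Ndnf. Lgals3, the lectin galectin-3, stood at 716 CPM in marker-rich cells and 84.8 CPM in the reference, a log2 fold of 3.06 (95% counting interval of the ratio 3.00 to 3.16). A Lgals3 UMI was found in 68.9% of marker-rich cells and 22.4% of reference cells, and in 57.8% and 13.9% after thinning. Anxa1, a phospholipid-binding protein that limits inflammation, stood at 527 CPM in marker-rich cells and 72.8 CPM in the reference (log2 fold 2.84). Both genes were therefore detected in many of the cells and not in a few.

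Areg, an EGF receptor ligand, was the most abundant of the 12, at 1738 CPM in marker-rich cells and 370 CPM in the reference (log2 fold 2.23), and 80.3% of thinned marker-rich cells held a UMI of it against 37.4% of thinned reference cells. Thbs1, a matrix glycoprotein that activates latent TGF-beta, stood at 419 CPM in marker-rich cells and 68.7 CPM in the reference (2.59). F3, tissue factor that starts coagulation, stood at 139 and 31.5 CPM (2.10), and Emp1, an epithelial membrane protein, at 93.8 and 19.8 CPM (2.19), in marker-rich and reference cells. The promoters of F3 and Emp1 above, like that of Sprr1a, hold a pair of matches to TGANTCA each. Both matches of Sprr1a read TGAGTCA, while TGATTCA is among those of Emp1 and TGAATCA among those of F3.

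Myc, the growth-promoting transcription factor, was low in both sets but stood apart, at 72.3 CPM in marker-rich cells and 5.83 CPM in the reference (log2 fold 3.42). Krtap17-1, annotated as a keratin-associated protein, had the largest fold, 3.49, from 54.0 CPM in marker-rich cells and 3.91 CPM in the reference. It was found in 7.59% of marker-rich cells, so its level came from few cells. Cxcl2, a neutrophil-attracting chemokine, stood at 106 and 24.4 CPM (2.07), and 99% of its UMIs in marker-rich cells were in the 79 richest of them. Gdf15, a stress-induced secreted factor, stood at 152 and 34.6 CPM (2.11), and 77.8% of its UMIs were in the 79 richest members. Clu, the extracellular chaperone clusterin, stood at 354 and 88.5 CPM (1.99), with 194 of its 1004 UMIs in 1 member. Ndnf, a secreted glycoprotein, stood at 167 and 44.4 CPM (1.89).

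The 12 lowest genes had smaller folds. Fabp5, a fatty acid carrier, stood at 1120 CPM in marker-rich cells and 2347 CPM in the reference (log2 fold -1.07), and 69.3% of thinned marker-rich cells held a UMI of it against 92.0% of thinned reference cells. Acoxl, related to peroxisomal acyl-CoA oxidases, stood at 183 and 434 CPM (-1.24), and Pon1, a lactonase and esterase, at 40.6 and 115 CPM (-1.48). Bex2, a small brain-expressed X-linked protein that ATII cells also make, stood at 218 and 480 CPM (-1.13). Cst8, a cystatin, stood at 86.4 and 183 CPM (-1.07), and Rbms3, an RNA-binding protein, at 180 and 371 CPM (-1.04). The others were Fam126b, Gm15478, Fabp12, Rad51b, Gm39094 and Galnt13, with log2 folds between -1.39 and -1.03.

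The 24 genes were chosen by their difference between the ends of the ranking, which fixes the overall direction of their levels along it. Between the ends, in the 3 middle bins of marker sum, 11 of the 12 highest genes were higher in each successive bin and all 12 lowest were lower in each. Of all 5354 measured genes, 26.7% were higher and 22.2% lower in each successive middle bin, and over all 5 bins 11.2% and 6.84%. Lgals3 stood at 84.8, 127, 189, 292 and 716 CPM in the lowest 50%, the 50 to 75% bin, the 75 to 90% bin, the 90 to 95% bin and the marker-rich cells. Fabp5 stood at 2347, 2085, 1936, 1704 and 1120 CPM in the same bins. Krtap17-1 was the exception, with 16.6 and 16.4 CPM in the third and the fourth bin. Median depth moved as well, between 3887 UMIs in the second bin and 3401 UMIs in the marker-rich cells, and its part in the steps was not tested. With reference cells matched to the members for depth, at medians of 3401 and 3402 UMIs for marker-rich and matched cells, 101 genes were higher and 26 lower.

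**Figure D2:**
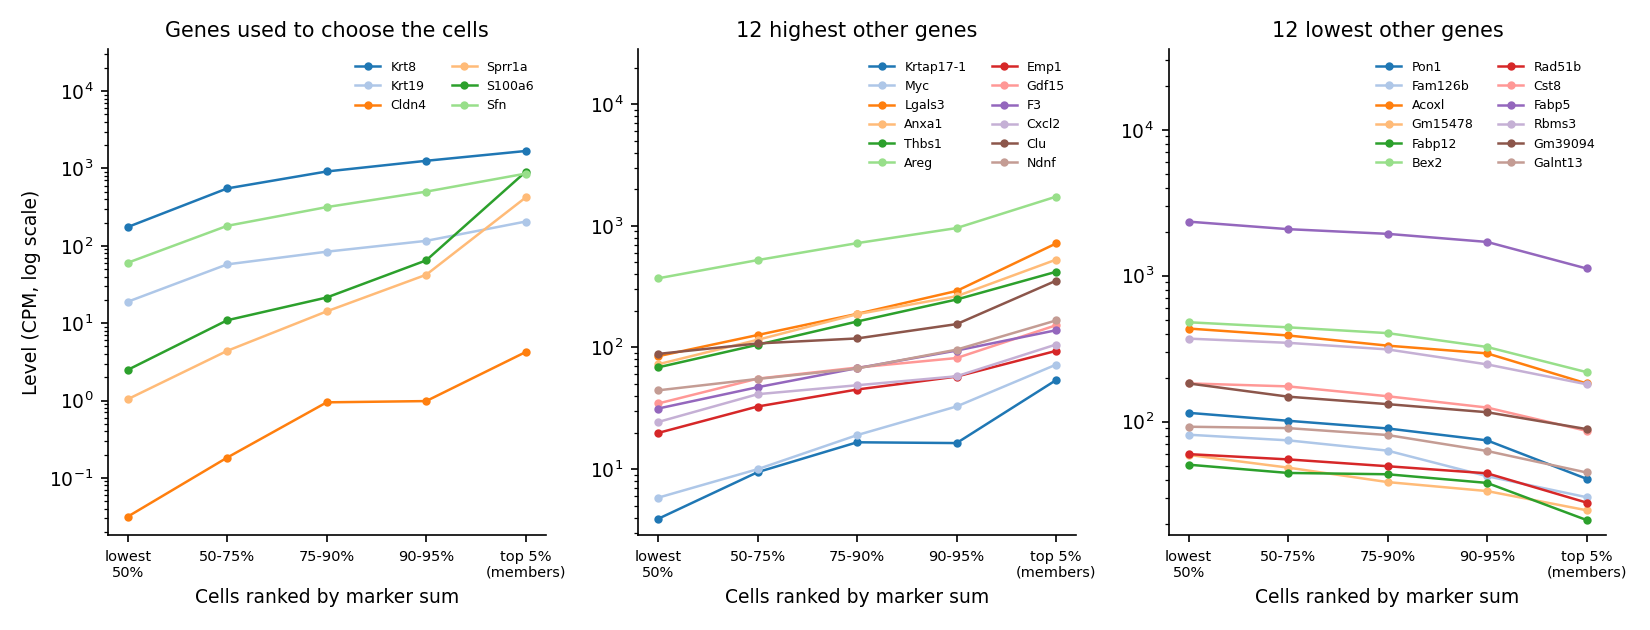
Level (CPM, log scale) of the 6 genes used to choose the cells, of the 12 highest and of the 12 lowest other genes in 5 bins of library A cells ranked by marker sum, from the lowest 50% to the top 5% (the marker-rich cells). In the middle panel 11 of 12 lines are higher in every successive bin and in the right panel all 12 are lower.

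Genes known from ATII to ATI intermediate cells, other than those of the rule, had the highest median fold among lists with at least 3 measured genes. Of 24 measured, 15 were at least 2-fold higher and 0 lower, with a median log2 fold of 1.07 against 0.06 over all genes. Besides Lgals3, Anxa1, Areg and Clu these were led by S100a14, a calcium-binding protein (30.3 CPM in marker-rich cells, 6.46 CPM in the reference, log2 fold 2.07), and Krt7, a simple epithelial keratin (183 and 51.5 CPM, 1.81). Krt18, the filament partner of Krt8, stood at 1495 CPM in marker-rich cells and 523 CPM in the reference (1.51), and 88.4% of thinned marker-rich cells held it against 58.4% of thinned reference cells. Cdkn1a, the p21 inhibitor of the cell cycle, stood at 704 and 338 CPM (1.05). Not all members of the list differed: Nupr1, a stress-response cofactor, stood at 750 CPM in marker-rich cells and 731 CPM in the reference.

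Measured markers of the cell types at both ends of that path differed by less than 2-fold. None of 16 ATII markers passed 2-fold, although 15 had a log2 fold below 0 and their median was -0.31. Sftpc, the surfactant protein C precursor, stood at 233501 CPM in marker-rich cells and 259456 CPM in the reference (log2 fold -0.15). Slc34a2, the phosphate transporter of ATII cells, stood at 1928 and 2978 CPM (-0.63). None of 8 ATI markers passed either, with 7 above 0 and a median of 0.36. Ager, a defining ATI marker in mouse, stood at 682 CPM in marker-rich cells and 632 CPM in the reference, and Aqp5, a water channel, at 743 and 518 CPM. Most ATII markers were thus lower in marker-rich cells and most ATI markers higher, all by less than 2-fold.

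Lipid genes were lower as a group by less than 2-fold for most. All 19 measured genes of lipid synthesis and carriage had log2 folds below 0, with a median of -0.44, and 2 passed: Fabp5 and Scd1, the desaturase that makes monounsaturated fatty acids (1816 CPM in marker-rich cells, 3641 CPM in the reference). In the list named for lamellar bodies and secretion, 3 of 23 measured genes were lower, Fabp12, Bex2 and Scd1, with a list median of -0.23. Scd1 is also counted among the lipid genes, and Fabp12 and Bex2 are among the lowest genes named above. The other 20 measured genes of the list did not pass. The 3 therefore do not show that lamellar body genes as such were at least 2-fold lower. All 11 mitochondrially encoded genes were below 0, with a median of -0.24 and 0 past 2-fold.

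Stress pathways differed in the number of genes past 2-fold. Of 16 NRF2 targets and metallothioneins, 7 were higher and 0 lower, with a median of 0.86. Slc7a11, the cystine importer, stood at 46.6 CPM in marker-rich cells and 11.4 CPM in the reference (log2 fold 1.94), and Gclc, which limits glutathione synthesis, at 1674 and 765 CPM (1.13). Srxn1, which repairs peroxiredoxins, stood at 41.6 and 10.9 CPM (1.84). No gene passed among 14 heat shock genes (median 0.31, 12 above 0) or 14 genes of the unfolded protein response (0.14, 10 above 0). None passed among 9 genes of the integrated stress response (0.54, 7 above 0) or 14 of glycolysis and hypoxia (0.23, 11 above 0). Over all measured genes 1.89% were at least 2-fold higher and the median was 0.06. A count of 0 in lists this short is near that share, and each of these medians lay above 0.06. Of 9 measured p53 and senescence genes only Gdf15 passed, and all 9 lay above 0 with a median of 0.27. Cdkn1a and Perp, p53 targets held in other lists, passed as well, and Sfn, another, was used to choose the cells.

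Matrix and inflammatory genes differed in part. In the list of TGF-beta response and matrix, 5 of 11 genes were higher: Thbs1, Timp2, a metalloproteinase inhibitor (1.78), Lama3, a laminin chain (1.28), Sparc, a collagen-binding protein (357 CPM in marker-rich cells, 160 CPM in the reference, 1.15), and Itgav, the integrin subunit that takes part in TGF-beta activation (1.11). Of 18 NF-kB and inflammatory genes, 5 were higher, among them Cxcl2, Cxcl10, a chemokine for T cells (35.3 and 4.38 CPM, 2.75), Cxcl1, a neutrophil chemokine (59.3 and 21.5 CPM, 1.42), and Il6, a cytokine (25.1 and 10.9 CPM, 1.13). Lcn2, an iron-sequestering acute phase protein, did not pass, at 935 CPM in marker-rich cells and 1037 CPM in the reference. MHC class II genes had a median of 0.47 with 0 of 6 past 2-fold.

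Immediate early genes, which handling of cells can induce, were split. Of 24 measured, 5 were higher: Myc, Fosl1, an AP-1 subunit (117 CPM in marker-rich cells, 37.8 CPM in the reference, log2 fold 1.61), Klf2, a transcription factor (129 and 52.3 CPM, 1.29), Ccn1, a matrix-associated YAP target (248 and 102 CPM, 1.28), and Ier5. The list's median was 0.50, with 19 of 24 genes above 0. Jun, the most abundant of the list, stood at 2135 CPM in marker-rich cells and 2207 CPM in the reference, while Jund, another AP-1 subunit, stood at 1318 and 881 CPM (0.58) and Atf3, a stress-induced transcription factor, at 1283 and 912 CPM (0.49). Of the 5 genes below 0, Fos stood at 797 and 879 CPM and Egr1 at 588 and 681 CPM. Of 25 actin and cytoskeleton genes 3 were higher, Tmsb10, Capg and Lmna, and all 25 lay above 0 with a median of 0.56.

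No gene passed among 21 nuclear genes of oxidative phosphorylation (median log2 fold 0.12), 33 ribosomal protein genes (0.09), 13 genes of Wnt, Notch, YAP and FGF signalling (0.08) or 4 interferon genes (0.21). Malat1, an abundant nuclear noncoding RNA, stood at 19052 CPM in marker-rich cells and 19163 CPM in the reference, and Neat1, another, at 515 and 348 CPM (0.56). All 14 junction genes lay above 0, with a median of 0.31 against 0.06 over all measured genes. Among these 14 junction genes only Perp, a desmosomal protein induced by p53, passed (46.9 CPM in marker-rich cells, 22.6 CPM in the reference, 1.02), and Cldn18, a claudin of alveolar epithelium, stood at 828 and 687 CPM.

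**Figure D3:**
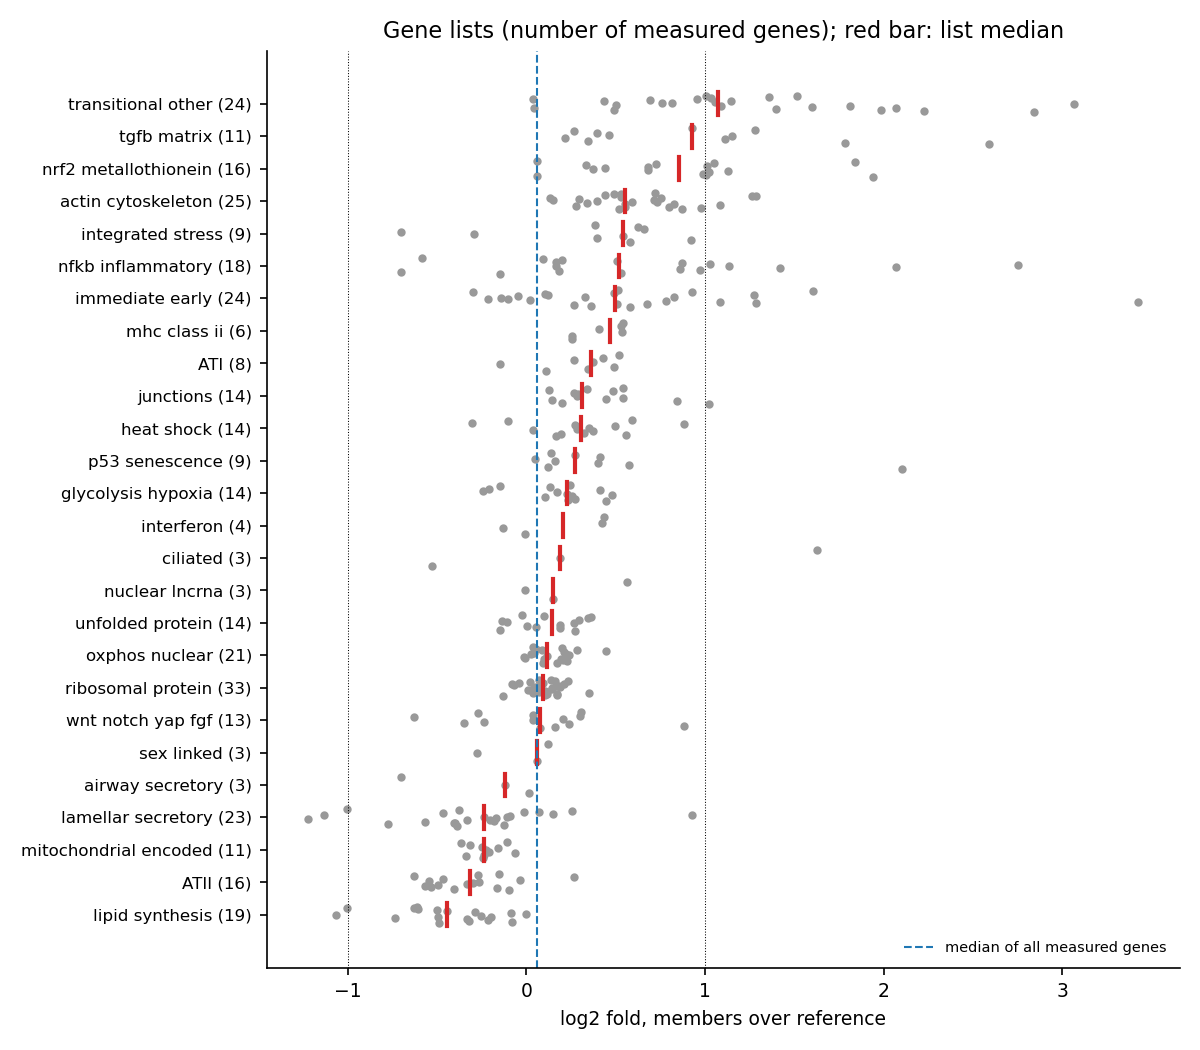
Log2 fold of marker-rich over reference cells for each measured gene (grey points) of each list with at least 3 measured genes, with the list median (red bar), the median of all measured genes (dashed line, 0.06) and 2-fold limits (dotted). The intermediate-cell list (transitional other) has the highest median, 1.07, and lipid synthesis the lowest, -0.44.

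Markers of other cells differed in level between lists. Goblet, basal, neuroendocrine, dendritic, neutrophil, T and NK cell, fibroblast, smooth muscle, erythroid and proliferation lists had 0 measured genes. Tppp3, a tubulin-binding protein listed for ciliated cells, was higher (80.1 CPM in marker-rich cells, 25.3 CPM in the reference, log2 fold 1.63), while Dynlrb2 of the same list stood at 23.3 and 34.0 CPM. Plet1, listed for alveolar macrophages, stood at 52.9 and 16.3 CPM (1.64), and the summed level of that list was 55.7 CPM in marker-rich cells and 22.4 CPM in the reference. The 10 genes of the airway secretory list, club rule genes included, summed to 4064 CPM in marker-rich cells and 6153 CPM in the reference. The rule left club-rich cells out of the members but kept 444 of them in the reference, so this difference is a description. Scgb1a1, a club rule gene, stood at 518 CPM in marker-rich cells and 2553 CPM in the reference. Apart from the club rule genes the largest was Cbr2, a carbonyl reductase, at 2750 and 2725 CPM. The monocyte and macrophage list summed to 348 CPM in marker-rich cells and 639 CPM in the reference, nearly all of it Apoe (314 and 592 CPM), and its defining markers C1qa, C1qb and C1qc had 0 UMIs in both. Pecam1, an endothelial adhesion molecule, stood at 53.6 CPM in marker-rich cells and 100.0 CPM in the reference. Summed proliferation markers stood at 59.3 and 17.9 CPM, and 118 of the 168 such UMIs in marker-rich cells were in 4 cells. The part of such cells in the results was not tested beyond leaving out 20 members rich in non-epithelial markers, after which 106 genes were higher and 28 lower.

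The marker-rich cells were not alike, and S100a6 was in a minority of them. It had 0 UMIs in 494 of them, 1 UMI in 51 and 2 or more in 245, a division chosen after its values were seen. Median depth was 3456 UMIs in the 245 S100a6-rich cells and 3375 UMIs in the 494 without S100a6. The median marker sum, to which S100a6 itself adds, was 4531 in S100a6-rich cells and 2804 in those without, per 1000000 UMIs, so the subsets also differ in rank, and the part of rank in the values below was not tested. Sprr1a stood at 789 CPM in S100a6-rich cells and 221 CPM in those without. Between the 2 subsets, 102 of 5502 genes (1.85%) were at least 2-fold higher in S100a6-rich cells and 70 (1.27%) lower.

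S100a6-rich cells were higher in Ano1, a calcium-activated chloride channel, with 67.3 CPM against 8.06 CPM in cells without S100a6 (log2 fold 2.92). Gsn, the actin-severing protein gelsolin, stood at 245 CPM in S100a6-rich cells and 62.8 CPM in those without (1.95), and Lgals3 at 1313 and 411 CPM (1.67). Lcn2 stood at 355 CPM in S100a6-rich cells and 1237 CPM in cells without S100a6 (log2 fold -1.80), Lrg1, a leucine-rich secreted glycoprotein, at 58.5 and 254 CPM (-2.10), and Trf, transferrin, at 51.9 and 212 CPM (-2.01). Itih4, an acute phase protein, stood at 15.5 and 96.7 CPM (-2.57), Apoe, a lipid carrier, at 152 and 412 CPM (-1.43), and Fabp5 at 563 and 1443 CPM (-1.36). Markers of other cells moved with the split. Both measured genes of the monocyte and macrophage list, Apoe among them, were lower, with list sums of 171 CPM in S100a6-rich cells and 456 CPM in those without. Proliferation markers summed to 106 and 16.1 CPM, with 75 of the 96 such UMIs of S100a6-rich cells in 3 cells. The part of such cells in the split was not tested. The near-equal level of Lcn2 over all marker-rich cells thus combined a low level in S100a6-rich cells and a higher one in the rest.

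Both subsets were set against the reference as well. S100a6-rich cells had 206 of 5500 genes higher (3.75%) and 137 lower (2.49%). Cells without S100a6 had 65 of 5336 higher (1.22%) and 14 lower (0.262%). The subsets also differ in size, with 905842 UMIs in S100a6-rich cells and 1736777 UMIs in those without. A still smaller set, the 114 members led by Sfn with 392128 UMIs, had 226 of 5654 genes higher and 152 lower. The part of set size in these counts was not tested. Lgals3 had a log2 fold of 2.26 over the reference in the 494 cells without S100a6. The NRF2 list did not separate the subsets, with a median log2 fold of -0.08 between S100a6-rich cells and those without, while the intermediate-cell list had 0.65 and the lipid list -0.45.

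**Figure D4:**
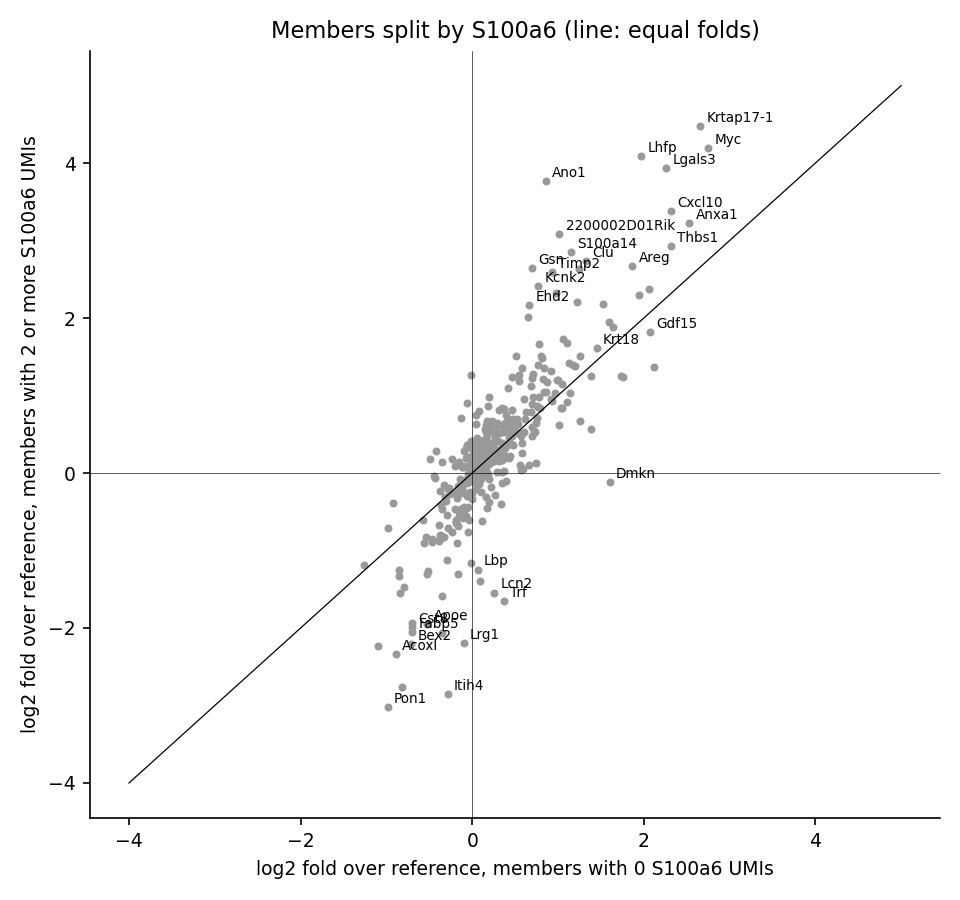
Log2 fold over the reference for genes of the lists and the leading genes of the split, in marker-rich cells with 2 or more S100a6 UMIs (vertical) and in those with 0 (horizontal), with the line of equal folds. Ano1, Lgals3 and Gsn lie above the line and Lcn2, Trf, Lrg1 and Itih4 below it.

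Another 3 sets of 818 cells were taken from library A by the same kind of sum, for immediate early genes, interferon genes and club cell genes. The marker-rich cells shared 47 cells with the immediate early set, 5.95% of marker-rich cells and 5.75% of that set, and each set holds 4.998% of the library's cells. They shared 72 with the interferon set, 9.11% of marker-rich cells (exact 95% interval 7.20 to 11.3%) and 8.80% of that set. Median depth was 3122 UMIs in the interferon set and 3401 UMIs in marker-rich cells, and its part in the overlap was not tested. The rule removes club-rich cells, so no overlap with that set could occur. The intermediate-cell list had a median log2 fold of 1.07 in marker-rich cells, 0.18 in the immediate early set, 0.23 in the interferon set and -0.25 in the club set, each over its own lowest 50%. The heat shock list ran the other way, at 0.31 in marker-rich cells and 0.68 in the immediate early set. Counts of genes past 2-fold were 25 higher and 15 lower in the immediate early set, of 5278 (0.474% and 0.284%), 5 and 1 in the interferon set, of 5198 (0.0962% and 0.0192%), and 15 and 30 in the club set, of 5169 (0.29% and 0.58%).

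The same rule was applied to libraries B and C, where it chose 257 and 683 cells. Folds there were wider: 473 of 4961 genes were higher (9.53%) and 478 lower (9.64%) in B, and 462 of 4938 higher (9.36%) and 428 lower (8.67%) in C. Of the 101 genes higher in A, 71 were measured in B and 72 in C. Of the 101, 44 were also higher in B (43.6% of A's genes, 9.30% of B's) and 49 in C (48.5% and 10.6%), and 39 in both, while 3 were at least 2-fold lower in B and 4 in C. Of the 28 lower genes, 4 were also lower in B, where 5 were measured and 1 was higher, and 4 in C, where 4 were measured. Median depth of marker-rich and reference cells was 5211 and 9045 UMIs in B, 2719 and 3427 UMIs in C, and 3401 and 3755 UMIs in A, and the part of these gaps in the wider folds was not tested.

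Lgals3 had log2 folds of 3.06, 3.59 and 3.86 in A, B and C, and Areg 2.23, 2.59 and 2.80, although Areg stood at 1738 CPM in marker-rich cells of A and at 87.0 and 136 CPM in those of B and C. Cldn4, at 4.23 CPM in marker-rich cells of A, stood at 231 CPM in those of B and 264 CPM in those of C. The intermediate-cell list had medians of 1.07, 1.93 and 1.90. In these respects the 3 libraries ran in the same direction with different levels.

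The ATII list separated them, with medians of -0.31, -1.86 and -1.68 in A, B and C, where 0, 15 and 14 genes were lower. The ATI list had medians of 0.36, 1.84 and 1.51. The NF-kB and inflammatory list stood at 0.52 in A and at -1.40 and -1.72 in B and C, and MHC class II genes at 0.47, -1.13 and -1.10. The median fold of both lists was thus above 0 in A and below 0 in B and C, although in A the NF-kB list had 5 of 18 genes past 2-fold and the MHC list 0 of 6. The libraries differ in depth, with medians of 3749, 8349 and 3341 UMIs over all cells of A, B and C, and in whatever day and treatment they hold, and these cannot be told apart. Libraries shared few barcodes, 20 between A and B, 67 between A and C, and 22 between B and C.

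**Figure D5:**
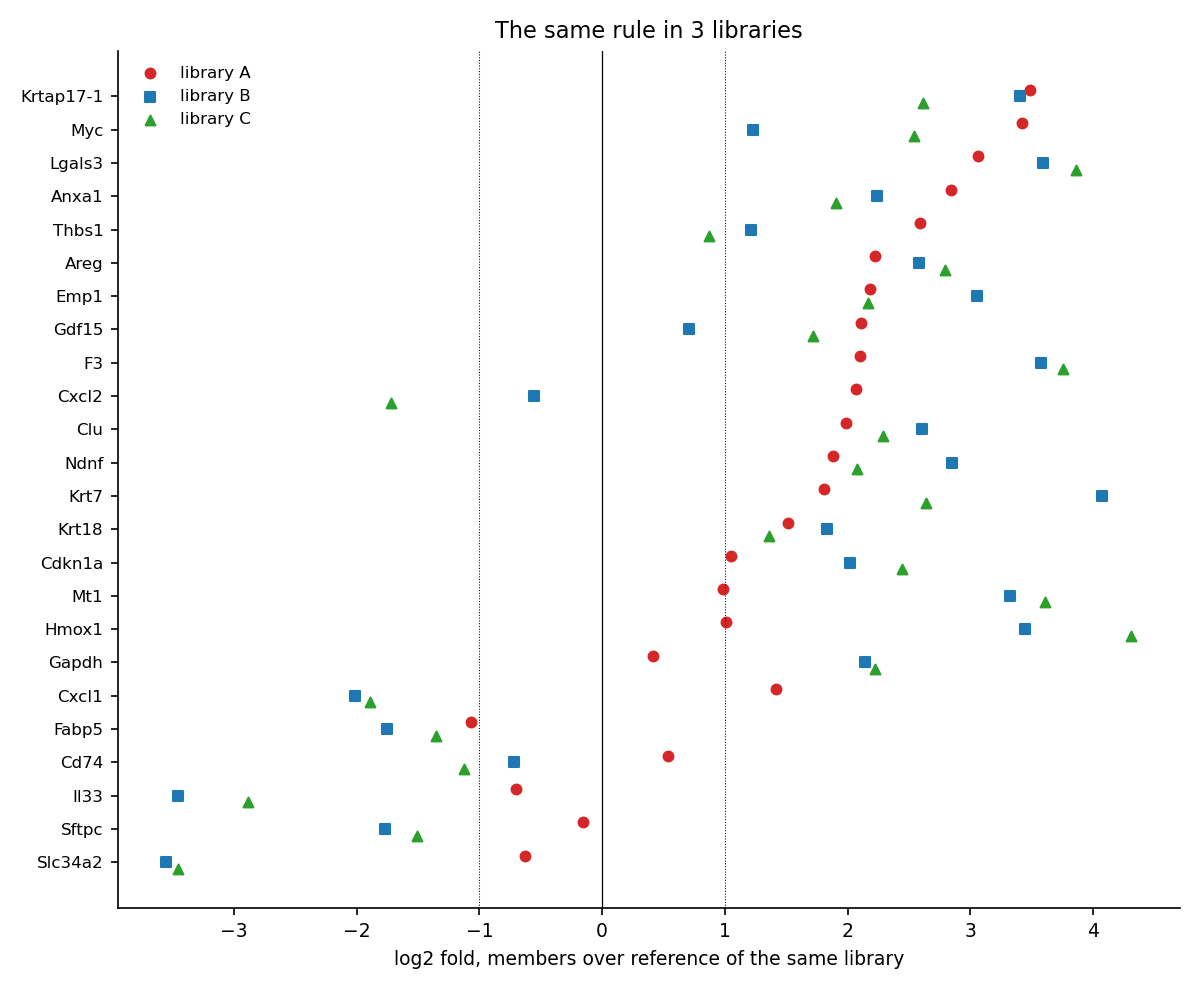
Log2 fold of marker-rich cells over the lowest 50% of the same library for the 12 highest genes of library A and 12 further genes, in libraries A (circles), B (squares) and C (triangles); dotted lines mark 2-fold. Lgals3, Areg, Clu and Krt18 are higher in all 3 libraries, Cxcl1 is higher in A and lower in B and C, and Sftpc and Slc34a2 lie near or below 0 in A and further below in B and C.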

How the data were processed

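The authors deposited 1 matrix of raw UMI counts over 36584 barcodes, made with bcl2fastq and Cell Ranger 6.0.1 on GRCm38 (mm10), per the submitters' processing notes. Doublet removal is not given in the sources used here. Gene IDs were named from the GENCODE annotation of GRCm38 (52489 of them; the 147 unnamed hold 0.0098% of UMIs). Minimums of 1000 UMIs and 500 genes and a maximum of 15% mitochondrial UMIs per cell removed 0, 1 and 43 barcodes of libraries A, B and C. Library totals are 63658436, 48676834 and 53329664 UMIs.

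Each set's counts were added up over its cells and scaled to a total of 1000000 (CPM). Genes at 20 CPM or more in either set were measured, and 2-fold or more on log2(CPM + 1) was a difference. The named genes are the 12 with the largest folds in each direction at 50 CPM or more in either set, up to 4 that passed and 2 that did not per list, and others named beside a list count, chosen after their values were seen. The members, lists and rules were chosen with earlier results of these data known. With 1 library, cells are not replicates and no test was made. Intervals of levels, folds and shares are exact (Poisson, binomial or conditional, 95%) and cover counting error only. Thinning drew 2000 UMIs per cell without replacement, leaving out 288 shallower cells of library A. Scripts were tested on simulated data with 200 changed genes. TMM factors came from edgeR 4.0.16 (R 4.3.3), and the rest from scipy 1.17.1, numpy 2.4.6 and pandas 2.3.3 (Python 3.11.15), with matplotlib 3.10.9 for figures. Doublets were not removed; leaving out the highest 5% of Scrublet-type scores, 19 members among them, was an alternative.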

Additional observations from a re-analysis of the deposited data

Results flagged for a closer look

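Cxcl1 had a log2 fold of 1.42 in marker-rich cells over the reference in library A, and -2.01 and -1.89 under the same rule in libraries B and C. In CPM this was 59.3 and 21.5 in marker-rich and reference cells of A, 24.4 and 101 in those of B, and 23.3 and 89.4 in those of C. It was singled out because the direction in A is opposite to that in both other libraries; the difference was not tested, since each library is 1 sample.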

How the results depend on the processing

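No paired analysis was possible because each group of the labels is a single library and no cell could be assigned to a label. The counts of genes at least 2-fold higher and lower, 101 and 28, became 354 and 425 with no CPM minimum, 58 and 13 at a minimum of 50 CPM, 169 and 93 with the top 2.5% of cells, 49 and 6 with the top 10%, 59 and 15 with all other cells of library A as reference, and 65 and 14 without members holding an S100a6 UMI, the last added after seeing the data. Without Sfn in the rule 17 genes were lower. TMM factors gave 79 higher and 32 lower, so the higher share of differing genes was 71.2% with TMM and 78.3% without. The 12 highest genes stayed at least 2-fold higher under all 23 alternatives, and the 12 lowest stayed below 0, but only 2 of these 12 were past 2-fold with the top 10% or without members holding an S100a6 UMI, 6 after thinning or against all other cells, and 7 without Sfn in the rule. Thinning every cell to 2000 UMIs before choosing gave 74 higher and 26 lower, with 70.1% of its 779 members shared. Of 598 list medians over 26 lists, 588 stayed within an interval drawn from the spread of folds among the list's genes. In the shortest lists that interval runs from the lowest to the highest gene, so staying within it says little. Of 2300 values of named genes, 426 left their counting interval. The median of 11 marker UMIs per member limits which cells near the threshold are counted as members.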
